A study of Mus musculus with 4 samples.

Results

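Adrenoceptors are the cell-surface proteins through which cells sense noradrenaline, and 6 of their genes were followed through the nuclei of mouse primary motor cortex. They were Adra1a, Adra1b and Adra1d, which encode alpha1 receptors, Adra2a and Adra2c, which encode alpha2 receptors, and Adrb1, which encodes a beta receptor. The members are the rows with these symbols, 6 of 32286 features counted in each library. All mice carried the C57BL/6N background, and each group was 1 single-nucleus RNA library. The SIK3-Ex13del AAV group received a local injection of an adeno-associated virus of serotype 8 that carries FLAG-tagged SIK3 without exon 13, a change the submitters describe as a gain of function. The SIK3-WT AAV group received the same virus with wild-type SIK3. Both vectors use the hSyn promoter, which drives expression in neurons. SIK3 is a kinase of the salt-inducible family. The sleep deprivation group was kept awake by gentle handling, and the ad lib sleep group slept freely. The ages, the sex and the number of animals behind each library are not given in the sources used here.

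Noradrenaline reaches the cortex from the locus coeruleus, a small brainstem nucleus whose neurons fire most in waking and fall silent in rapid eye movement sleep. Alpha1 receptors couple to Gq, which activates phospholipase C and protein kinase C. Alpha2 receptors couple to Gi, which lowers cyclic AMP and opens inward-rectifier potassium channels, and they also sit on noradrenergic endings as autoreceptors. Beta receptors couple to Gs, which activates adenylyl cyclase and raises cyclic AMP.

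The gene models differ widely, which bears on how many molecules a nuclear library can catch. On mm10 in the GENCODE vM21 annotation, Adra1a (ENSMUSG00000045875) spans chromosome 14 from 66635251 to 66771168 on the plus strand, and Adra1b (ENSMUSG00000050541) spans chromosome 11 from 43774606 to 43901210 on the minus strand. They cover 135918 and 126605 bases, of which 6.42% and 2.67% are exonic, so nearly all of both genes is intron. Adra1d (ENSMUSG00000027335) lies on chromosome 2 from 131545850 to 131562283 on the minus strand, with 2 exons. Its start overlaps the antisense transcript Gm14285, which spans 131561614 to 131563179. Adra2a (ENSMUSG00000033717) lies on chromosome 19 from 54044151 to 54048982, and Adra2c (ENSMUSG00000045318) on chromosome 5 from 35278319 to 35281763, both on the plus strand and entirely exonic. Adrb1 (ENSMUSG00000035283) spans chromosome 19 from 56722199 to 56733113 on the plus strand, and its coding transcript is a single exon. Whether reads from introns were counted, and whether strand was used, is not given in the sources used here. Levels are therefore set side by side between cell types and libraries for 1 gene at a time, never between genes.

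RefSeq promoter windows, 250 bases before to 50 after an annotated start on GRCm38.p6, matched 4 of the 6 genes, with a pair of starts for Adra1b. The windows of Adra1b are shown because the gene has a far and a near start whose sequences share no motif of those searched, and the 3' reads of these libraries cannot say which was used. That of Adrb1 is shown as the one beta member. Capitals mark matches, on either strand, to the TATA-box core (letters TATAAA), the half-site of the cAMP response element (TGACG), the E-box (CACGTG) and the GC box (GGGCGG).
Adra1b, far start, chr11:43901188-43901487, minus strand: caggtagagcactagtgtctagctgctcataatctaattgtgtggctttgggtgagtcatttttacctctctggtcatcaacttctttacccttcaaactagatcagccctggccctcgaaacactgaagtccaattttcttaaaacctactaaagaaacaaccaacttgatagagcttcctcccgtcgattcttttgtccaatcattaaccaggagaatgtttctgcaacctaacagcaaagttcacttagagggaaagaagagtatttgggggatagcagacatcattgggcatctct
Adra1b, near start, chr11:43836440-43836739, minus strand: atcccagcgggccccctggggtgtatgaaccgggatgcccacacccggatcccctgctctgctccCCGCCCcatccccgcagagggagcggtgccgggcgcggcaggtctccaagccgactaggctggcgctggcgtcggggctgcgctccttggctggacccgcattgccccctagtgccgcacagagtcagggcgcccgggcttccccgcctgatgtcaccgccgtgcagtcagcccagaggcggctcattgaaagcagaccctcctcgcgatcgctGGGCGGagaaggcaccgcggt
Adrb1, chr19:56721867-56722166, plus strand: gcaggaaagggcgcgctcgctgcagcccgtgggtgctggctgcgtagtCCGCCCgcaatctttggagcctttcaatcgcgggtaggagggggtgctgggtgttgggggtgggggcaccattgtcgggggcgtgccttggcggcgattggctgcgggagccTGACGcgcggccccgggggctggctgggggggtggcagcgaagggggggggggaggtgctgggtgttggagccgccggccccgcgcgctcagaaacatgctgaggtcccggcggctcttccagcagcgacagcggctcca
The far window of Adra1b held no match, and the near window held 2 GC boxes. The Adrb1 window held 1 half-site and 1 GC box. In the windows not printed, Adra2a had 1 match each to the TATA box, the half-site, the E-box and the GC box, and Adra2c had 1 E-box. Of 32851 promoter windows, 13.6% held the TATA box, 20.8% the half-site, 7.15% the E-box and 35.7% the GC box. The full cAMP response element TGACGTCA (1.79% of windows), the glucocorticoid response element (0.0487%) and the MEF2 core (0.110%) were in none of the members' windows. A match describes the letters and is no binding site.

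The libraries held 43655557 to 54070503 unique molecular identifiers (UMIs, each 1 captured molecule) in 5944 to 9438 barcodes, and 5333 to 8251 nuclei were kept. Nuclei were clustered without the members, and a cell type here means clusters named after the marker genes they express. The tissue label says cerebral cortex, but 1172 nuclei resembled striatal projection neurons. Pairs of libraries shared 9 to 16 barcodes. Nuclei left without a name made up 14.7%, 14.2%, 30.9% and 10.6% in the SIK3-Ex13del AAV, SIK3-WT AAV, sleep deprivation and ad lib sleep libraries, so the sleep deprivation library stood apart. Most of the unnamed nuclei lay in 2 clusters of 2541 and 1343 nuclei that carried excitatory markers. The larger was set aside for low depth. The smaller, with a median of 2593 UMIs, was set aside because it matched no subclass and was shallower than the median of its libraries. The median depth of excitatory nuclei was also highest in the sleep deprivation library, at 13993 UMIs. It was 7502 in the ad lib sleep library, with 10110 and 9288 in the SIK3-Ex13del and SIK3-WT AAV libraries. Levels are CPM, counts scaled to the same total of UMIs in each cell type and library, with the SD over the 4 libraries or an exact Poisson 95% interval, which covers counting error only. Because each group was a single library, group differences went untested.

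Adra1a was highest in inhibitory neurons. It peaked in Lamp5/Sncg interneurons, cells of the upper layers that include neurogliaform cells. There it stood at 653 CPM in the SIK3-Ex13del AAV library, 621 CPM in the SIK3-WT AAV library, 605 CPM after sleep deprivation and 632 CPM after ad lib sleep. The 4 libraries lay close together, at 628 ± 20.2 CPM (SD, n = 4 libraries), and none overlapped any other cell type. The next types were fast-spiking Pvalb interneurons at 183 ± 9.2 CPM and Vip interneurons at 178 ± 15 CPM, whose ranges overlapped each other but not that of any lower type. Lamp5/Sncg was thus 3.43-fold above its nearest neighbour. In layer 5 extratelencephalic (ET) neurons, which project out of the cortex, Adra1a stood at 109 ± 9.4 CPM, the highest of the excitatory types. Astrocytes (89.5 ± 13 CPM), oligodendrocyte precursors (88.1 ± 23 CPM) and Sst interneurons (74.2 ± 26 CPM) followed, and neighbours from here down overlapped. Layer 2/3 intratelencephalic (IT) neurons (11.4 ± 2.5 CPM) and layer 5 IT neurons (11 ± 2.9 CPM) were among the lowest, and layer 6b held 3.96 ± 3.2 CPM on 12 UMIs.

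By share of nuclei with a UMI, Lamp5/Sncg interneurons were again highest for Adra1a. On average over libraries 93.5% of Lamp5/Sncg nuclei had at least 1 Adra1a UMI, against 2.84% of oligodendrocytes, at median depths of 6791 and 1955 UMIs. With every nucleus thinned to 1000 UMIs, the shares were 44.2% and 1.17%. Within the Sst class the gene was uneven. A small cluster of 39 nuclei, led by the nitric oxide synthase gene Nos1 and the substance P receptor gene Tacr1, held 401 CPM (334 to 477), against 57.3 CPM (51.9 to 63.1) in the larger Sst cluster of 787 nuclei. This small cluster held 8 to 11 nuclei per library, and its 4 libraries ranged over 270.2 to 539 CPM, all above the 44.7 to 94.6 CPM of the larger cluster. The Pvalb class was split the other way, with 104 CPM (78.5 to 135) in a cluster of 60 nuclei and 189 CPM (180.0 to 199) in the other 840.

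Adra1b was highest in the cluster named Vip. Vip interneurons mainly inhibit other interneurons, but Cnr1, a marker listed for Lamp5/Sncg, was also among the leading genes of this cluster. Under a stricter filter on nuclei, 150 nuclei that shared several of these leading genes were named Lamp5/Sncg, so the Vip name may cover other cells. In the Vip cluster Adra1b stood at 144 CPM in the SIK3-Ex13del AAV library and 147 CPM in the SIK3-WT AAV library. It was 195 CPM after sleep deprivation and 119.9 CPM after ad lib sleep, a mean of 151 ± 32 CPM. The 4 values spread widely, yet their range overlapped that of no other type. Lamp5/Sncg interneurons (75.2 ± 8.9 CPM) and layer 5 IT neurons (66.1 ± 5.1 CPM) came next and overlapped each other. The excitatory types therefore had another order than for Adra1a. Layer 5 IT stood first among the excitatory types for Adra1b and close to last for Adra1a, while layer 6 corticothalamic (CT) neurons held 43.9 ± 6.7 CPM and layer 5 ET neurons 38.3 ± 6.4 CPM of Adra1b. Layer 2/3 IT (14.4 ± 2.2 CPM) and layer 4/5 IT neurons (12 ± 2.1 CPM) were low. D1 and D2 striatal neurons held 4.64 and 4.89 CPM, the lowest of the 22 cell types. Vascular leptomeningeal cells, the fibroblasts of the brain coverings, averaged 44.5 ± 23 CPM on 39 UMIs.

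Adra1d was sparse, with 390 UMIs in all barcodes. Its highest mean was in layer 5 IT neurons, at 6.32, 5.34, 8.2 and 3.67 CPM in the SIK3-Ex13del AAV, SIK3-WT AAV, sleep deprivation and ad lib sleep libraries (mean 5.88 ± 1.9 CPM). Layer 4/5 IT neurons held 4.78 ± 1.3 CPM, and the ranges overlapped. Layer 5 ET, layer 5/6 near-projecting (NP) and layer 2/3 IT neurons each averaged between 2.14 and 2.27 CPM. Pvalb interneurons held 1.86 ± 0.17 CPM. No UMI was seen in 429 Lamp5/Sncg nuclei, which allows up to 4.62 CPM in the least covered library (3 counts), nor in 437 pericytes and smooth muscle cells. Reads of the antisense Gm14285 could not be told apart if strand was not used.

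Adra2a, the alpha2A receptor and in mice the main noradrenergic autoreceptor, was hardly seen outside a few types. Its 333 UMIs were highest in CPM in vascular leptomeningeal cells, at 6.27, 40.6, 16.1 and 21.1 CPM in the SIK3-Ex13del AAV, SIK3-WT AAV, sleep deprivation and ad lib sleep libraries. These rest on 14 UMIs in 178 cells, and the counting intervals of the 4 libraries (mean 21.0 ± 14 CPM) overlapped. Layer 6b neurons, a thin deep layer left from the embryonic subplate, held 10.51, 11.7, 1.21 and 12.1 CPM in the same order of libraries. They were the highest neurons, on 27 UMIs. The sleep deprivation value lay below the other 3 but rests on 1 UMI. Its counting interval (0.0306 to 6.74 CPM) overlapped those of the other 3. Astrocytes held 4.18 ± 1.4 CPM. Layer 6 CT neurons (2.20 ± 0.49 CPM) and layer 2/3 IT neurons (1.6 ± 0.47 CPM) were low in every library, and D2 striatal neurons, layer 5/6 NP neurons and newly formed oligodendrocytes held 0 UMIs. For the 589 D2 neurons this allows up to 4.71 CPM in the least covered library.

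Adra2c, the alpha2C receptor, had its highest mean in D1 striatal neurons, which carry the D1 dopamine receptor. Their level was 35.6 CPM in the SIK3-Ex13del AAV library, 25.7 CPM in the SIK3-WT AAV library, 21.3 CPM after sleep deprivation and 25.6 CPM after ad lib sleep, a mean of 27 ± 6.1 CPM. D2 striatal neurons, marked by the D2 receptor, held 10.9 ± 4.2 CPM, with a highest library (17.0 CPM) below the lowest D1 library. Among cortical neurons, Vip interneurons (10.7 ± 2.1 CPM), layer 2/3 IT (8.67 ± 2.0 CPM) and layer 4/5 IT neurons (8.35 ± 3.5 CPM) were highest. Layer 5 ET neurons had the lowest mean of all 22 types, at 2.65 ± 0.85 CPM. Their range (1.79 to 3.61 CPM) overlapped those of layer 5/6 NP neurons (0 to 5.66 CPM) and Pvalb interneurons (1.62 to 4.66 CPM). Layer 2/3 IT neurons thus stood above layer 5 ET neurons for Adra2c and below them for Adra1a, in every library. Endothelial cells averaged 18 ± 4.7 CPM on 34 UMIs, and their range (12.9 to 22.5 CPM) reached into that of D1 neurons. After sleep deprivation microglia (24.5 CPM on 5 UMIs) and endothelial cells (21.4 CPM on 11 UMIs) stood at or above the D1 level of that library.

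Adrb1, the beta1 receptor, was high in the IT and ET types of layers 2/3 to 5. Layer 5 ET neurons held 50.8 CPM in the SIK3-Ex13del AAV library, 46.3 CPM in the SIK3-WT AAV library, 50.6 CPM after sleep deprivation and 53.8 CPM after ad lib sleep, a mean of 50.4 ± 3.1 CPM. Layer 4/5 IT (42.3 ± 5.7 CPM), layer 2/3 IT (41.5 ± 5.0 CPM) and layer 5 IT neurons (34.3 ± 2.2 CPM) followed. Layer 4/5 IT and layer 2/3 IT overlapped, while layer 2/3 IT (37.6 to 48.9 CPM) lay above layer 5 IT (32.0 to 36.6 CPM). The excitatory cluster without a subclass (34.9 ± 6.8 CPM) overlapped both. Under a stricter filter on nuclei, a cluster that shared many of its leading genes was named layer 6 IT. Below layer 5 IT there was a gap, and the next type, Vip interneurons, held 26.2 ± 1.8 CPM. Layer 5/6 NP neurons held 17.7 to 30.5 CPM. Layer 6 CT neurons were lower than the layer 2/3 to 5 IT and ET types, at 20.2 ± 1.1 CPM, with no library above 21.2 CPM. Layer 6b held 7.51 to 15.7 CPM. Interneurons were below the layer 2/3 to 5 IT and ET types in each subclass, down to 11 ± 0.99 CPM in Sst cells. Microglia, the immune cells of the brain, had the highest mean of all types, at 58.0, 53.7, 53.8 and 38.4 CPM in the SIK3-Ex13del AAV, SIK3-WT AAV, sleep deprivation and ad lib sleep libraries (51.0 ± 8.6 CPM). That rests on 73 UMIs, and its range overlapped that of layer 5 ET neurons.

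**Figure D1:**
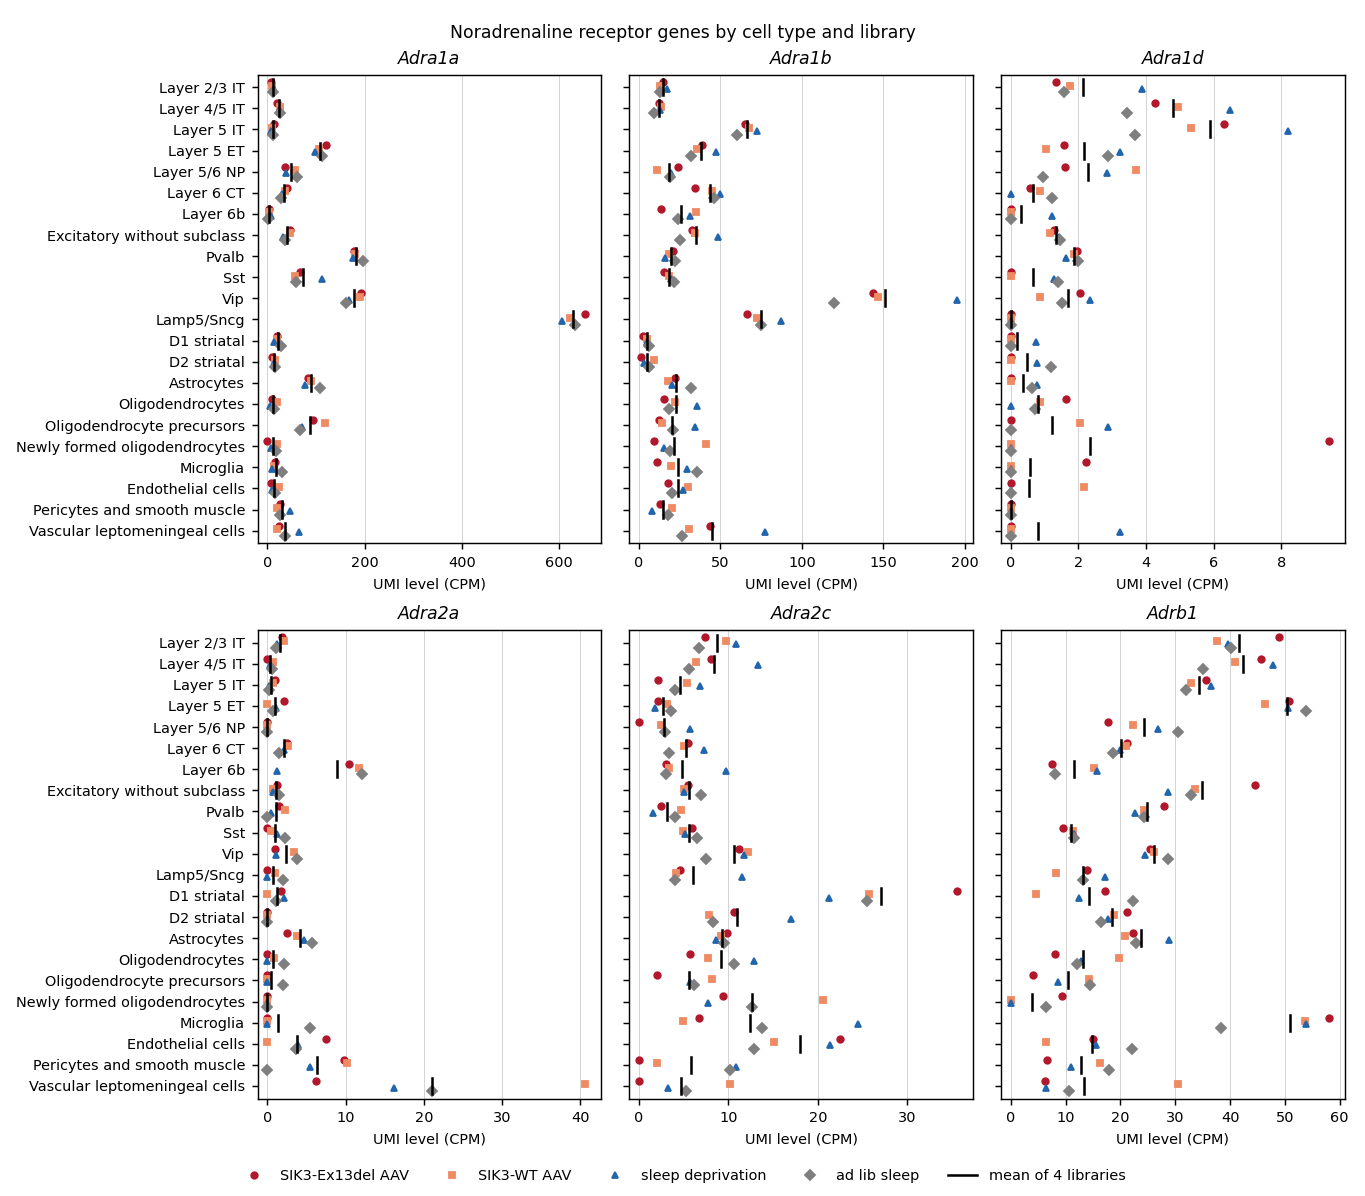
Level of each receptor by cell type, with 1 panel per gene. The horizontal axis is CPM, and each point is 1 of the 4 libraries, with a black bar at their mean. Adra1a stands apart in Lamp5/Sncg interneurons (605 to 653 CPM) and Adra1b in Vip interneurons (119.9 to 195 CPM), while Adrb1 is spread over the excitatory types.

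Shallow nuclei catch RNA that floats free in the suspension, so levels outside the excitatory types were set beside a stand-in for that RNA. The stand-in was the largest unnamed cluster, 2541 nuclei with a median of 887 UMIs. It carried excitatory markers, so it cannot bound free RNA from interneurons, striatal neurons or glia. Its level was scaled, in each library, by how much of its Slc17a7 (a glutamate transporter gene of excitatory neurons) was seen in the cell type. The result is called the free-RNA value. For Adra1a, it was 3.19 to 5.13 CPM in Lamp5/Sncg interneurons, against 605 to 653 CPM seen. Astrocytes were also far above it, at 77.3 to 108 CPM against 9.36 to 16.1 CPM. Oligodendrocytes were not, with 6.41 to 19.8 CPM seen and a free-RNA value of 10.8 to 19.1 CPM. Only 1 of 4 libraries lay above its own value. The same held for Adra1b in D1 and D2 striatal neurons, each with 1 library above. Endothelial cells were at or near this level. Their Adrb1 (6.47 to 22.1 CPM) was above the free-RNA value (16.3 to 25.9 CPM) in 0 of 4 libraries. Their Adra2c (12.9 to 22.5 CPM) was above it (9.95 to 14.7 CPM) in 4 of 4, but by little. Microglial Adrb1 (38.4 to 58.0 CPM) was above the free-RNA value (9.17 to 25.4 CPM) in all 4 libraries. Adra2a in vascular leptomeningeal cells, and Adra2c in D1 striatal neurons, were above it in all 4 as well.

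**Figure D2:**
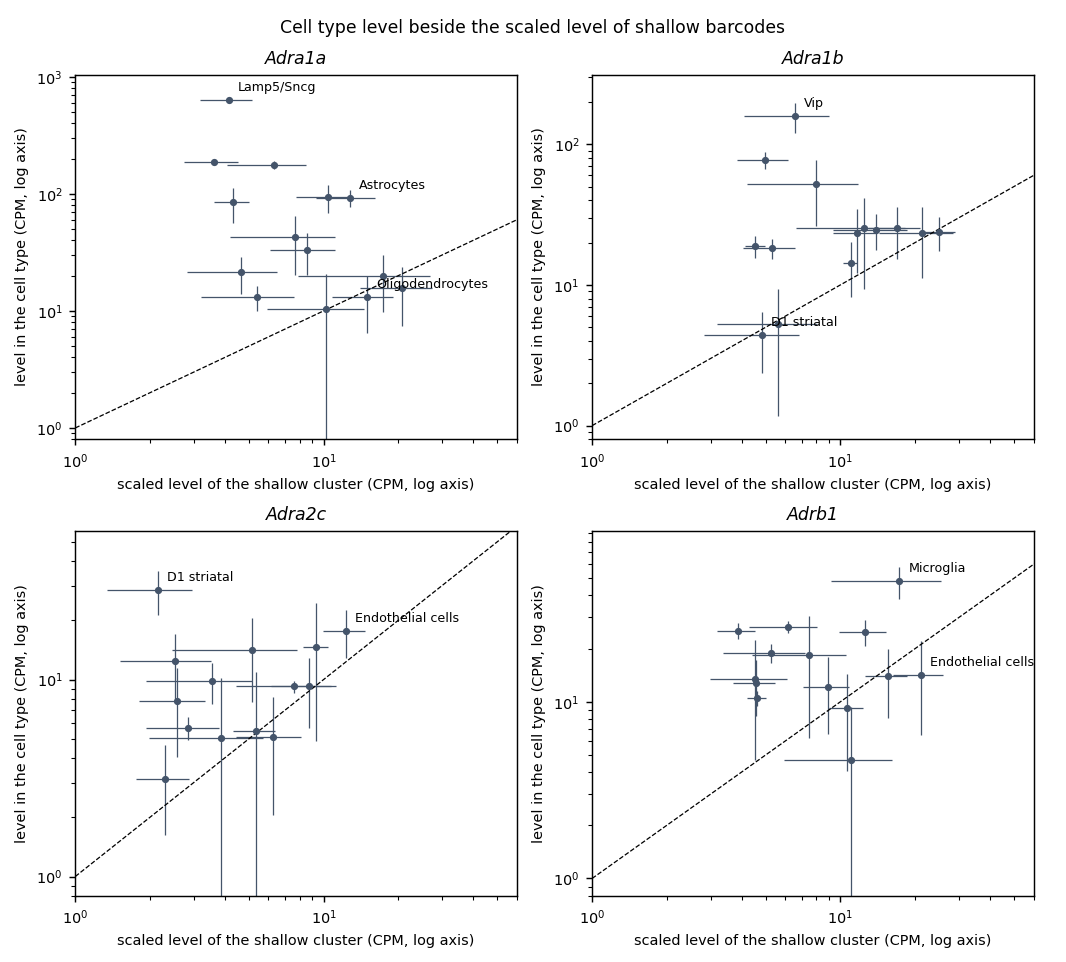
Level of Adra1a, Adra1b, Adra2c and Adrb1 in each cell type other than the excitatory ones (vertical axis, CPM) against the free-RNA value (horizontal axis, CPM). Both axes are log axes. The free-RNA value is the scaled level of the shallow cluster with excitatory markers. Points and bars give the middle and range over the 4 libraries, bars that include 0 run off the axis, and the dashed line marks equal values. Adra1a in Lamp5/Sncg lies far above the line, and Adrb1 in endothelial cells does not.

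The shape of each pattern over the 22 cell types was compared with 12924 other genes by Pearson's correlation of mean log2(CPM + 1). These correlations are a description, since the points share libraries and depth. Adra1a was most like Kcnmb2 (r = 0.81), a subunit of large-conductance potassium channels, Kcns3 (0.80), a modifying subunit of voltage-gated potassium channels, and 6530411M01Rik (0.80). All 3 were highest in Lamp5/Sncg interneurons, where Kcnmb2 stood at 1085 CPM and Kcns3 at 149 CPM. Adra1b was closest to Whamm (0.76), which promotes actin branching, Ctif (0.76), a translation factor, and Gm12153 (0.76). Adra1d was closest to Gm42953 (0.81), Gm20752 (0.80) and Prr16 (0.79), all highest in layer 4/5 IT neurons. Adra2a followed Col23a1 (0.89), a transmembrane collagen, Fkbp10 (0.85), a collagen chaperone, and Gm45051 (0.83), all highest in vascular leptomeningeal cells. The Adra2a pattern rests on only 333 UMIs in all barcodes, with few of them in those cells, its highest type. Adra2c followed Hpca (0.74), the calcium sensor hippocalcin, Eif2a (0.73), an initiation factor, and Ppp1r1b (0.71), the dopamine-regulated phosphatase inhibitor DARPP-32. Ppp1r1b is also 1 of the markers that named the striatal class. Hpca and Ppp1r1b were highest in D2 striatal neurons and Eif2a in newly formed oligodendrocytes, not in the D1 neurons where Adra2c was highest. Adrb1 followed Fbxo34 (0.82), Ctdp1 (0.80) and Sumf1 (0.79), which encode an F-box protein, a phosphatase of RNA polymerase II and a sulfatase-modifying enzyme. Among the members themselves the highest correlation was that of Adra1d with Adrb1 (0.52), followed by Adra1a with Adra1b (0.42).

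The sleep comparison asked how the receptors stood after sleep deprivation relative to ad lib sleep, and excitatory neurons were the largest class for it (1868 and 3664 nuclei). Of the 6 genes, 4 passed the filter on low values, a mean of 5 CPM and 20 UMIs over both libraries, and 1 was at least 1.5-fold apart. That gene was Adra2c, at 8.11 CPM (7.11 to 9.22) after sleep deprivation, against 4.85 CPM (4.10 to 5.69) after ad lib sleep, on 235 and 149 UMIs. The AAV libraries held 5.14 CPM (SIK3-Ex13del) and 6.16 CPM (SIK3-WT), so the sleep deprivation library was the highest of the 4. The ratio was 1.67 (95% interval 1.36 to 2.07). Of all 12006 genes past the filter in this class, 1.66% were at least 1.5-fold higher and 3.56% at least 1.5-fold lower. Alpha2 Adra2a stood at 1.04 and 1.3 CPM after sleep deprivation and ad lib sleep, under the filter.

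The Adra2c difference was not even over excitatory types. The sleep deprivation library was higher in 6 of 8, with ratios of 1.62 in layer 2/3 IT, 2.37 in layer 4/5 IT, 1.71 in layer 5 IT and 2.21 in layer 6 CT neurons, and 1.98 and 3.21 in layer 5/6 NP and layer 6b on few UMIs. It was lower in layer 5 ET neurons (1.79 against 3.61 CPM) and in the excitatory cluster without a subclass (5.01 against 6.96 CPM). In inhibitory neurons Adra2c stood at 5.83 CPM after sleep deprivation and 5.44 CPM after ad lib sleep, a ratio of 1.07 (0.637 to 1.78). Depth also differed between these libraries. When every nucleus was thinned to 1000 UMIs, only 9 and 19 Adra2c UMIs were left in excitatory neurons. The ratio was then 0.928 (0.370 to 2.15), on the other side of 1, with an interval that includes both 1 and the unthinned 1.67. Thinned, the layer 2/3 IT ratio was 0.450, but on only 1 nucleus with a UMI after sleep deprivation and 4 after ad lib sleep. The shallow unnamed cluster held 39.2 CPM of Adra2c in the sleep deprivation library, against 18.7 CPM in the ad lib sleep library. The part of depth and of these shallow nuclei in the result was not tested.

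The other receptors of excitatory neurons were less than 1.5-fold apart after sleep deprivation or lay under the filter. Adra1b stood at 39.3 CPM after sleep deprivation, against 31.9 CPM after ad lib sleep, a ratio of 1.23 (1.13 to 1.34). It was higher after sleep deprivation in 8 of 8 excitatory types, from 1.04-fold in layer 5/6 NP to 1.91-fold in the cluster without a subclass. Adra1d stood at 3.80 and 2.12 CPM after sleep deprivation and ad lib sleep, a ratio of 1.79 (1.31 to 2.48) below the filter. Adra1a was close to even, at 27.3 and 29.7 CPM (0.920, 0.835 to 1.01), and so was Adrb1, at 35.2 and 32.7 CPM (1.08, 0.985 to 1.18).

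**Figure D3:**
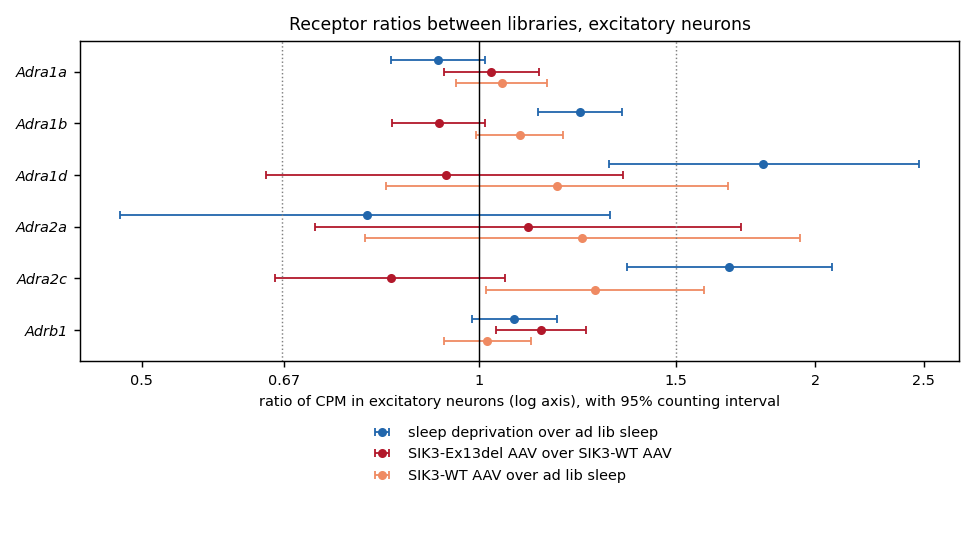
Ratio of CPM between libraries for each receptor in excitatory neurons, for the 3 comparisons, on a log axis. Bars are exact 95% intervals for counting error only, and dotted lines mark 1.5-fold either way. Adra2c after sleep deprivation (1.67) is the point past the line among the genes over the filter, and Adra1d (1.79) is past it under the filter.

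Across 20 cell types with at least 50 nuclei in both libraries, 63 receptor ratios of sleep deprivation to ad lib sleep passed the filter. Of these, 14 were at least 1.5-fold higher and 6 at least 1.5-fold lower, where 7.05% and 10.7% of all gene and cell type pairs were. Adra1a in Sst interneurons was among the higher ones, on 177 UMIs after sleep deprivation and 128 after ad lib sleep. It was at 113 CPM after sleep deprivation, against 59.3 CPM after ad lib sleep, a ratio of 1.90 (1.51 to 2.40), and the AAV libraries held 68.1 (SIK3-Ex13del) and 56.6 CPM (SIK3-WT). The small Nos1-led cluster made up 6.78% of Sst nuclei after sleep deprivation and 3.40% after ad lib sleep. Without it the ratio was 1.91 (1.47 to 2.49), at 94.6 and 49.4 CPM. Thinned to 1000 UMIs it was 1.52 (0.719 to 3.08). Over the whole inhibitory class Adra1a was 215 CPM after sleep deprivation and 209 CPM after ad lib sleep, a ratio of 1.03 (0.948 to 1.11).

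Adra1b in Vip interneurons was 1.63-fold higher after sleep deprivation (1.3 to 2.04), at 195 against 119.9 CPM, with the AAV libraries between them. Under a stricter filter on nuclei, which also changed the cells named Vip, that ratio was 1.02. In oligodendrocytes Adra1b was 35.7 CPM after sleep deprivation and 18.4 CPM after ad lib sleep. The free-RNA value there was 13.0 to 20.9 CPM, and 3 of 4 libraries were above their own value. Adra1d in layer 5 IT neurons was 8.2 CPM after sleep deprivation and 3.67 CPM after ad lib sleep, on 43 and 21 UMIs. That ratio was 2.23 (1.3 to 3.96), and 0.979 when thinned, on only 3 and 6 nuclei with a UMI. On the other side, Adra1a was lower after sleep deprivation in layer 5 IT neurons (8.01 against 12.2 CPM), in layer 5/6 NP neurons (38.2 against 60.9 CPM) and in D1 striatal neurons (14.0 against 28.8 CPM). Those ratios were 0.654 (0.435 to 0.973), 0.627 (0.385 to 0.998) and 0.485 (0.255 to 0.906), and thinned the D1 ratio was 1.32, on the other side of 1. In astrocytes Adra1a was 77.3 CPM after sleep deprivation and 108 CPM after ad lib sleep.

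**Figure D4:**
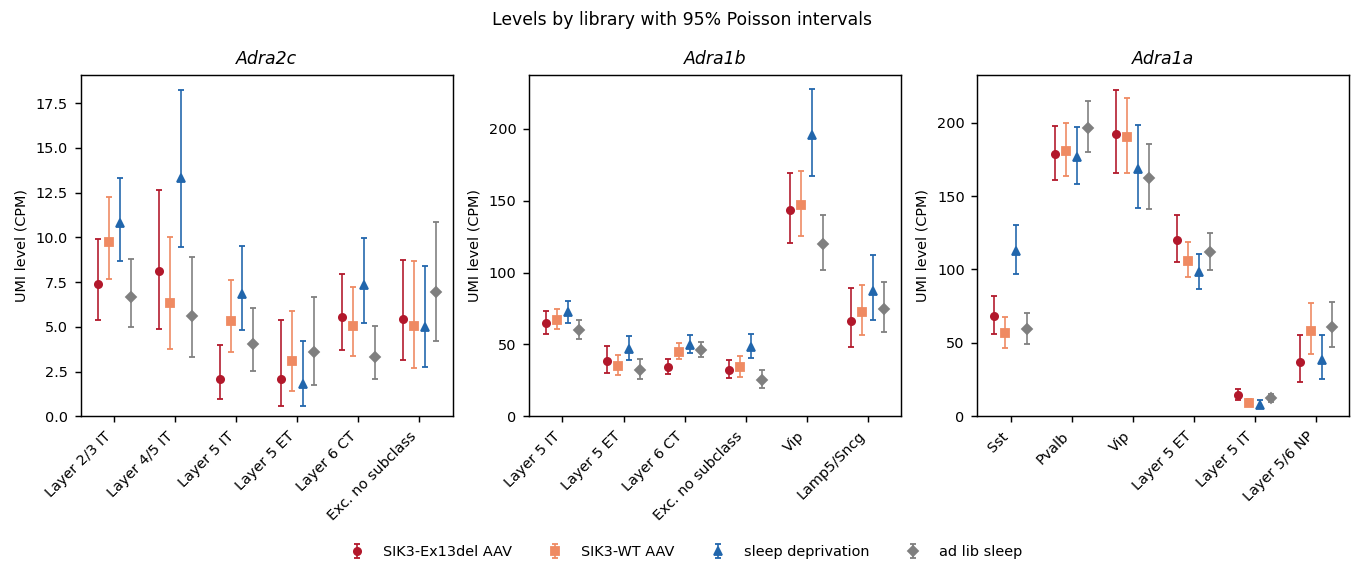
CPM of Adra2c, Adra1b and Adra1a in chosen cell types, with 1 point per library in the order SIK3-Ex13del AAV, SIK3-WT AAV, sleep deprivation and ad lib sleep. Bars are exact Poisson 95% intervals for counting error only, and the sleep deprivation library is the highest of the 4 for Adra2c in layer 4/5 IT neurons (13.3 CPM) and for Adra1a in Sst interneurons (113 CPM).

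The vector comparison set SIK3 without exon 13 against wild-type SIK3. None of the 4 receptors over the filter in excitatory neurons was 1.5-fold apart, where 1.13% of 12024 genes were higher and 0.0499% lower. The highest ratio was that of Adrb1, at 37.8 CPM with SIK3-Ex13del against 33.3 CPM with SIK3-WT, 1.14 (1.04 to 1.246). The lowest was that of Adra2c, at 5.14 against 6.16 CPM, 0.834 (0.658 to 1.06). Adra1a was even at 31.9 and 31.1 CPM in the SIK3-Ex13del and SIK3-WT libraries, and Adra1b stood at 32.0 and 34.7 CPM. Over 20 cell types, 56 ratios passed the filter, with 3 higher and 6 lower, where 7.83% and 5.81% of all pairs were. Adra1a in layer 5 IT neurons was 14.5 CPM with SIK3-Ex13del and 9.25 CPM with SIK3-WT (1.57, 1.07 to 2.31), and under thinning 0.606, on the other side of 1. Adra1b in layer 6b was 13.5 CPM with SIK3-Ex13del against 35.2 CPM with SIK3-WT, on 9 and 21 UMIs. Adrb1 in D1 striatal neurons was 17.2 CPM with SIK3-Ex13del and 4.68 CPM with SIK3-WT, where the SIK3-WT value rests on 4 UMIs. In layer 2/3 IT neurons Adrb1 was 48.9 CPM with SIK3-Ex13del, above the 37.6 to 40.2 CPM of the other 3 libraries, and less than 1.5-fold apart.

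The wild-type vector against ad lib sleep asked what virus and wild-type SIK3 together go with, and it shares the ad lib sleep library with the sleep comparison. In excitatory neurons 0 of 4 receptors over the filter was 1.5-fold apart, where 0.3% of 12002 genes were higher and 0.833% lower. The ratios ran from 1.02 for Adrb1 to 1.27 (1.01 to 1.59) for Adra2c, all above 1. Over 20 cell types 58 ratios passed the filter, with 4 higher and 5 lower, where 5.52% and 8.0% of all pairs were. Adra1a in oligodendrocyte precursors stood at 119 CPM with SIK3-WT, against 68.0 CPM after ad lib sleep (1.74, 1.12 to 2.76). Adra1b in astrocytes stood at 17.7 CPM with SIK3-WT, against 31.8 CPM after ad lib sleep.

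The wider pathway was followed through 50 genes in lists by role, of which 40 passed the filter in excitatory neurons. After sleep deprivation 23 of the 40 were above and 17 below their ad lib sleep level, with a median log2 ratio of 0.02, against -0.03 over all genes of the class. Past 1.5-fold were 2 genes of the 40, both higher after sleep deprivation, and 0 were lower. Over all genes of the class 1.66% were higher and 3.56% lower. Among them was Adcy9, an adenylyl cyclase in the Gs list, at 248 CPM after sleep deprivation against 164 CPM after ad lib sleep (1.52, 1.46 to 1.57). It lies just past the line. With equal weight for each excitatory type, 0 genes were past it.

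In the Gq list 7 of 9 genes past the filter were above 1 after sleep deprivation. Their median log2 ratio was 0.21, against -0.03 over all genes of the class. The share of all genes above 1 is not given here for any of the lists. Prkcb, the beta isoform of protein kinase C, stood at 989 CPM after sleep deprivation against 768 CPM after ad lib sleep, while the phospholipase C gene Plcb1 stood at 1269.9 against 1389.8 CPM. In the Gi list 6 of 9 were above 1. The potassium channel gene Kcnj3 stood at 364 CPM after sleep deprivation against 453 CPM after ad lib sleep. In the Gs list 5 of 10 were above 1, and the cyclase gene Adcy2 was even at 477 and 490.1 CPM after sleep deprivation and ad lib sleep. In the regulation list 4 of 9 were above 1, with Rgs7, a brake on Gi signalling, at 759 and 764 CPM, and the arrestin gene Arrb1 at 51.5 and 40.6 CPM after sleep deprivation and ad lib sleep. Of the supply and removal list 3 of 9 passed. The vesicular transporter gene Slc18a2 stood at 23.2 CPM after sleep deprivation against 29.2 CPM after ad lib sleep. The synthesis genes Th, Ddc and Dbh and the transporter gene Slc6a2 lay under the filter in this class, as did Adra2b and Adrb3.

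Between the vectors 0 of 40 pathway genes were 1.5-fold apart, where 1.13% of all genes were higher and 0.0499% lower. The median log2 ratio was 0.03, against 0.04 over all genes. Plcb1 stood at 1322 CPM with SIK3-Ex13del and 1396 CPM with SIK3-WT, Prkcb at 790.4 and 829.9, Kcnj3 at 439 and 468, Adcy2 at 454 and 487, Adcy9 at 205 and 195, Rgs7 at 763 and 751, and Grk3, a receptor kinase gene, at 47.3 and 45.8 CPM in the same order. Slc18a2 was as close, at 27.8 CPM in both. Between SIK3-WT and ad lib sleep 0 of 40 were 1.5-fold apart as well, where 0.3% of all genes were higher and 0.833% lower. The median was 0.04, against -0.02 over all genes. Receptor medians over the 4 genes past the filter were 0.20, -0.04 and 0.10 on the log2 scale for the sleep, vector and wild-type vector comparisons.

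**Figure D5:**
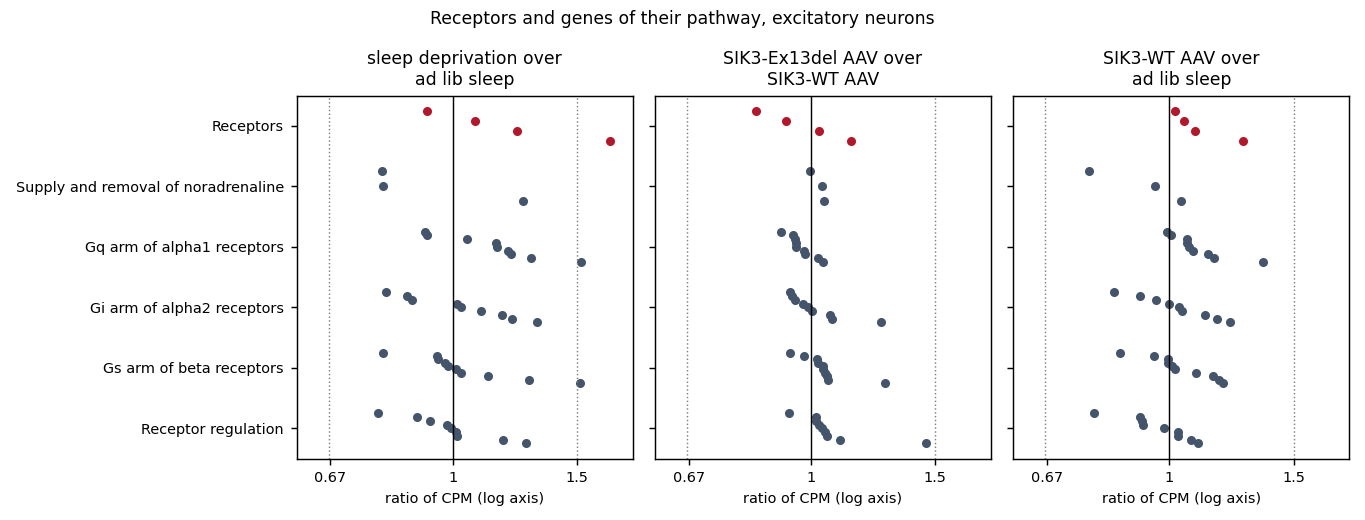
Ratio of CPM in excitatory neurons, on a log axis, for each receptor (red) and pathway gene (grey) past the filter, grouped by list, in the 3 comparisons. Dotted lines mark 1.5-fold either way. After sleep deprivation 2 pathway genes, Adcy9 among them, reach the upper line, as does the receptor Adra2c, and in the other comparisons no point does.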

How the data were processed

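Nuclei of primary motor cortex were profiled with a 10x 3' (v3.1) kit, per the labels' protocols, in 4 libraries of 1 group each. The authors deposited raw UMI counts without normalization. Their notes on processing, per the labels, name Cell Ranger 6.1.2 and the mm10 genome. The members and gene lists were chosen with earlier results of these data known, and the thresholds that turn markers into cell type names were chosen after seeing them.

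Kept nuclei had 500 or more genes detected and a mitochondrial share of UMIs below 5%. Scrublet's automatic threshold called 0 to 4 doublets per library, which is too low, so the nuclei with the highest scores were removed up to the doublet rate for the loading, 0.8% for every 1000 barcodes (266 to 687 nuclei per library). Values were scaled to 10000 per nucleus, centred within library, reduced to 30 components of 2000 variable genes and clustered with Leiden at resolution 1 (scanpy 1.11.5, leidenalg 0.10.2). Members, pathway genes, the vector and genes of the mitochondria, of X inactivation and of the Y chromosome were left out of this step. Cell types of fewer than 50 nuclei, such as the 37 that resembled ependymal cells, are left out of the order. Clusters of low depth, of mixed markers or under 30 nuclei stayed unnamed. So did neuron clusters that matched no subclass and were shallower than the median of their libraries. D1 and D2 striatal neurons came from clustering the striatal class again.

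Counts were summed per cell type and library and given as CPM of that sum, with exact Poisson intervals, ratios with exact conditional intervals and shares of nuclei, all covering counting error only. Past the fold means at least 1.5-fold either way among genes with a mean of 5 CPM and 20 UMIs. Calculations used scipy 1.17.1 and were tested on simulated counts. Named genes are the 6 members, pathway genes past the fold, the 2 of highest mean CPM in each list with genes past the filter, and the 3 closest in pattern to each member among genes that reach 20 CPM in a cell type. Some genes that the rule names are not reported here. Thinning drew 1000 UMIs per nucleus and left out 454, 486, 899 and 607 shallower nuclei of the SIK3-Ex13del AAV, SIK3-WT AAV, sleep deprivation and ad lib sleep libraries. The comparison with free RNA and the larger Sst cluster alone were chosen after seeing the data.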

Additional observations from a re-analysis of the deposited data

Results flagged for a closer look

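Each difference between cell types given here was not tested, since each group was 1 library. Adra1a stood apart by cell type after sleep deprivation relative to ad lib sleep. The ratio was 1.90 in Sst interneurons, but 0.654 in layer 5 IT neurons, 0.627 in layer 5/6 NP neurons and 0.485 in D1 striatal neurons, each with a counting interval that did not reach 1, and thinned the D1 ratio was 1.32. For SIK3-Ex13del over SIK3-WT, Adra1a had a ratio of 1.57 in layer 5 IT neurons (0.606 thinned) and 0.450 in oligodendrocytes. Adrb1 had a ratio of 3.68 in D1 striatal neurons and 0.409 in oligodendrocytes in the same comparison. The oligodendrocyte levels did not exceed the free-RNA value in part of the libraries.

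Nuclei left without a name, most of them of low depth, took no part in the comparisons and still held every receptor. Summed over the 4 libraries they held 42.8 CPM of Adra1a, 43.6 CPM of Adra1b, 1.38 CPM of Adra1d, 4.33 CPM of Adra2a, 16.3 CPM of Adra2c and 37.1 CPM of Adrb1, all above the limit that a count of 0 allows.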

How the results depend on the processing

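No paired analysis was possible because each group was 1 library, and for the same reason no library could be left out. Of 1733 alternatives for 212 receptor ratios, 1626 moved by no more than the counting interval, 97 moved further and 10 changed side. Each type that was highest for its receptor stayed first under every alternative run. The stricter filter gave no value for Adra2a in vascular leptomeningeal cells, and the other clusterings gave none for Adra2c in D1 striatal neurons. Some of these levels moved. Adra1a in Lamp5/Sncg was 472 CPM with the stricter filter on nuclei, 568 CPM with doublets kept and 596 CPM thinned. Adra1b in Vip was 199.6 CPM with the stricter filter, and Adra2c in D1 striatal neurons was 34.0 CPM thinned. The stricter filter also changed which nuclei carried the Lamp5/Sncg and Vip names. A cluster of 150 nuclei led by Frem1 and Adarb2, genes that led the Vip cluster of the main run, was named Lamp5/Sncg there.

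Receptors past the fold in excitatory neurons after sleep deprivation numbered 1. The count was 0 thinned and at a mean of 20 CPM, where Adra2c lies under the filter, and 2 with no filter. For SIK3-WT over ad lib sleep it was 1 at the lower fold tried. Pathway genes higher after sleep deprivation numbered 1 by the mean over nuclei, 0 with equal weight per excitatory type and 7 at the lower fold, and lower ones 4 at that fold and 5 with no filter. For SIK3-Ex13del over SIK3-WT, 3 were higher at the lower fold, and 1 higher and 3 lower with no filter. For SIK3-WT over ad lib sleep, 1 was higher and 2 lower at the lower fold, and 2 higher and 1 lower with no filter.

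Thinning turned these ratios, and its counts are small. For sleep deprivation over ad lib sleep they were Adra1a in D1 (1.32), Adra1d in layer 5 IT (0.979), and Adra2c in D2 (0.392), layer 2/3 IT (0.450) and excitatory neurons (0.928). For SIK3-Ex13del over SIK3-WT they were Adra1a in D2 (1.41) and layer 5 IT (0.606), and for SIK3-WT over ad lib sleep Adra2c in Vip (0). The stricter filter turned Adra1b in endothelial cells for SIK3-Ex13del over SIK3-WT (1.63) and Adra2c in Vip for SIK3-WT over ad lib sleep (0.603). Apart from small counts under thinning and the filter, the cause was not tested. Depth limits Adra1d (390 UMIs) and Adra2a (333 UMIs) most.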
